A study of Mus musculus with 4 samples.

Results

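The genes described here encode metabotropic glutamate receptors and both subunits of the GABA-B receptor, and they were chosen by name: Grm5, Grm7, Grm8, Gabbr1 and Gabbr2. Of these 5 names, 4 are among the 18143 genes of the count tables. Grm5 was not analysed here. The series profiled neurons of the spiral ganglion, the relay between cochlear hair cells and the brainstem, and asked which native neuron populations the mouse cochlea holds. The cells came from the temporal bones of 4 wild-type male CBA/CaJ mice, all aged 9 weeks and untreated as far as the labels say, and no transgene marked the neurons. Every mouse contributed to all 5 groups compared, namely 3 kinds of type I neuron (IA, IB and IC), the type II neurons, and cells that the authors annotated as putative spiral ganglion neurons. These annotations were used as deposited. They describe the same cells whose transcripts are compared, so a receptor gene may itself have helped to separate the populations.

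Metabotropic receptors act through G proteins rather than through a pore of their own. Grm7 and Grm8 belong to the group III metabotropic glutamate receptors, which couple to Gi/o proteins, lower cyclic AMP and damp transmitter release at presynaptic terminals. The GABA-B receptor works as a heterodimer, in which the Gabbr1 product binds GABA and the Gabbr2 product carries the complex to the cell surface and engages Gi/o proteins. In the cochlea, type I neurons receive glutamate from inner hair cells and release glutamate onto the cochlear nucleus, type II neurons contact outer hair cells, and the efferent olivocochlear fibres that reach the neurons include GABA-containing ones.

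The tables held 6713 cells and 86572150 unique molecular identifiers (UMIs, each standing for 1 captured transcript near its 3′ end). The type I cells numbered 2384 (IA), 1625 (IB) and 2104 (IC), beside 95 type II and 505 putative cells, with median depths of 12400.5, 13334, 14403, 10862 and 4725 UMIs per cell. Of 6687 distinct barcodes, 26 occurred in more than 1 library. Levels below are counts per 1e6 UMIs of a mouse and population (CPM), given as mean ± SD over the 4 mice. Markers of the labels were high where they should be: the sum of 6 type II markers reached 1512 ± 481 CPM in type II cells, with 116 to 187 CPM elsewhere, and the sum of 3 type IC markers was 3207 ± 218 CPM in type IC. Putative cells carried type IA markers at 3733 ± 1499 CPM and type IC markers at 1129 ± 205 CPM. Most of each sum was 1 gene, with Calb2 at 3605 CPM and Lypd1 at 1024 CPM in putative cells. Lypd1 was also most of the type IC sum in type IC (2953 CPM). The sum of 8 satellite glia markers was 9151 ± 2146 CPM for type II and 8688 ± 435 CPM for putative cells, against 1583 to 1670 CPM in the type I populations. When each cell was instead given the population whose profile in the other 3 mice it resembled most, without using the receptor genes or their partners, the label was kept by 96.1% of IA, 87.1% of IB, 96.6% of IC and 77.9% of type II cells, but by 42.6% of putative cells.

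The receptors differed in how far they separated the populations. Grm8 was highest in type IC, Grm7 was present in all type I populations and low in type II, and Gabbr1 and Gabbr2 varied little. By edgeR's quasi-likelihood test, blocked by mouse, and a Benjamini-Hochberg adjusted p under 0.05, 2 of 4 receptor genes differed between type IA and type IB, where 15.6% of all 13005 tested genes did. Between type IA and type IC 4 of 4 differed, against 32.3% of all genes, and between type IB and type IC 2 of 4, against 11.8%. Type II differed from the mean of the type I populations in 2 of 4, against 23.4% of all genes, and putative cells in 2 of 4, against 23.3%. With 4 members, these counts show which genes differed and say nothing about the receptors as a class. Of all calls in type II, 50.8% were higher there with edgeR and 61.9% with DESeq2.

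**Figure D1:**
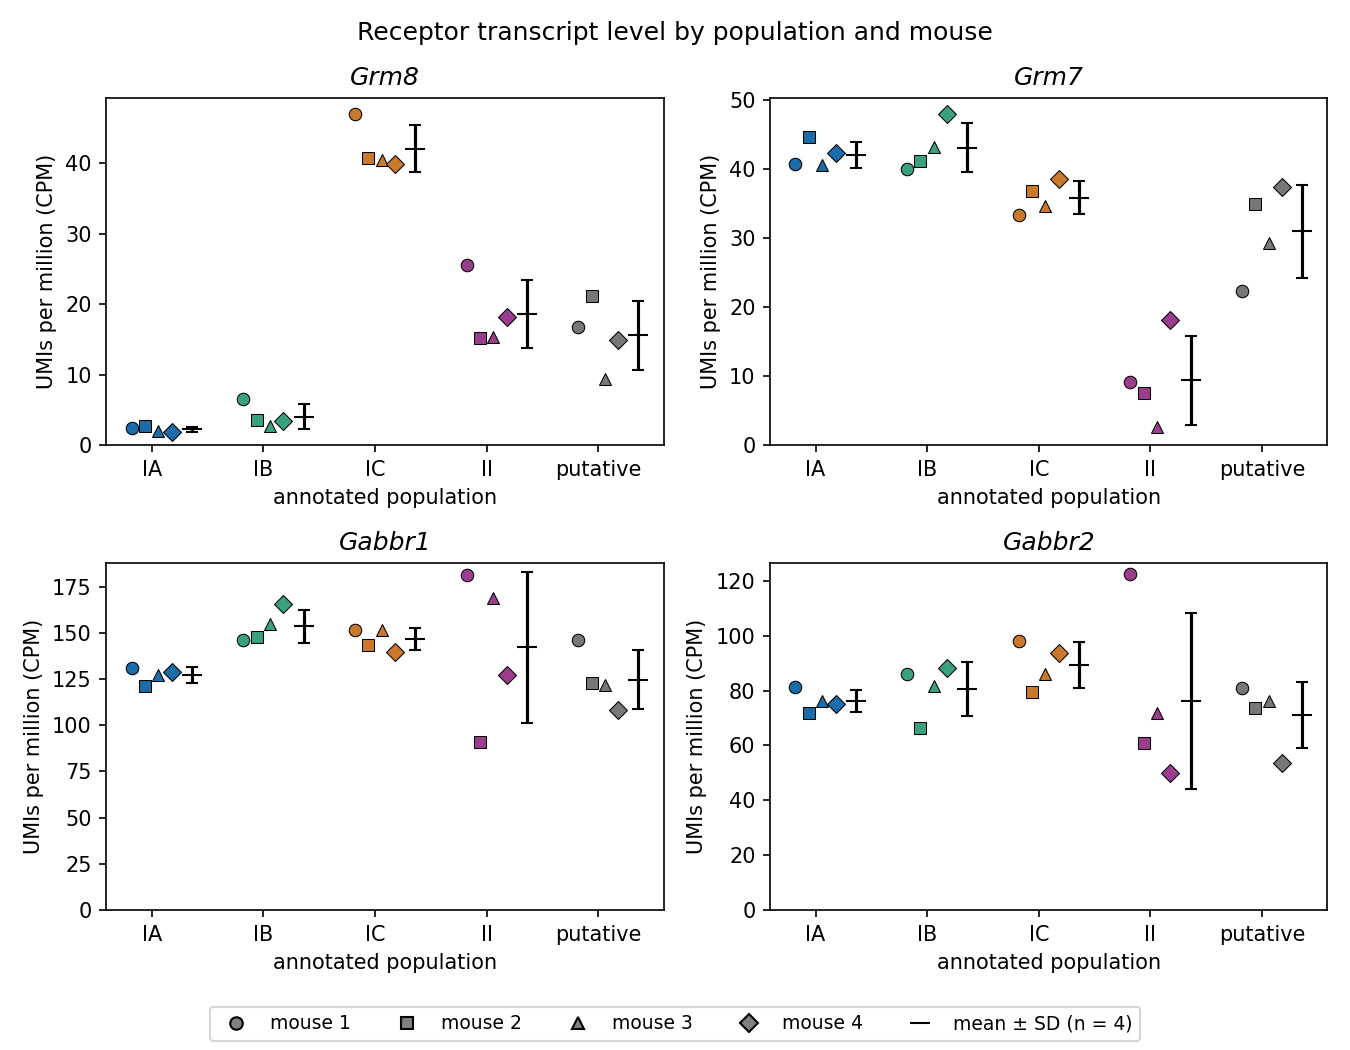
CPM (y axis) of each receptor gene in the 5 annotated populations (x axis), with 1 symbol per mouse and the mean ± SD over 4 mice beside them. Grm8 stands at 39.9 to 47.0 CPM in type IC and at most 6.61 CPM in types IA and IB, while Grm7 is lowest in type II.

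Grm8 lies on the minus strand of chromosome 6 (chr6:27275119-28135178, GRCm38, GENCODE M21 annotation), and Grm7 on the plus strand of the same chromosome (chr6:110645581-111567230). The sequences upstream of their first RefSeq start sites are printed because these receptors showed the clearest differences between populations. Both are given 5′ to 3′ on the gene's strand from RefSeq's GRCm38.p6 windows, at chr6:28135179-28135396 (minus) for Grm8 and chr6:110645262-110645511 (plus) for Grm7. Capitals mark the GC box letters GGGCGG, the core recognised by Sp-family factors.
Grm8: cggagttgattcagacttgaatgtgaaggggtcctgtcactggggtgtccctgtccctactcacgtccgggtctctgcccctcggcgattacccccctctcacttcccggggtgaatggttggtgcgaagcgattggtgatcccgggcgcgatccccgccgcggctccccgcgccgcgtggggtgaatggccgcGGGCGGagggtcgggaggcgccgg
Grm7: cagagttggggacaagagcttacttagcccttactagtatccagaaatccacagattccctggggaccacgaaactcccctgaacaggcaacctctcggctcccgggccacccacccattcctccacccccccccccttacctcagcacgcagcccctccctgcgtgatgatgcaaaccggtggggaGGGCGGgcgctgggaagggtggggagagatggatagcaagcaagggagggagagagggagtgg

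In the full window of 250 bases before the RefSeq start, Grm8 has 29 CpG dinucleotides and Grm7 has 8, and each has 1 GC box. The median over 32851 such windows of mouse genes is 6 CpG, and 32.7% of them hold GGGCGG or its reverse complement CCGCCC. The Gabbr1 window holds 16 CpG and 2 GC boxes, and the Gabbr2 window 37 CpG and 2 GC boxes. The GENCODE gene bounds reach into 2 of these windows. Part of the Gabbr2 window, with both of its GC boxes, and 32 bases of the Grm8 window lie inside the GENCODE gene. RefSeq gives Grm8 further starts, whose windows have 8 and 2 CpG and no GC box. The letters TGTGGT or ACCACA, the core bound by RUNX factors and searched because Runx1 is on the list of type IC markers, were in none of the windows of these genes and in 14.0% of all windows. Runx1 itself did not set type IC apart from type IB, with means of 12.3, 81.3 and 86.7 CPM in IA, IB and IC. The UMIs do not show which start a transcript used, and a match of letters is not evidence of binding.

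Grm8 was high in type IC and low in the other type I populations. It stood at 47.0, 40.8, 40.5 and 39.9 CPM in type IC of mice 1 to 4 (42.1 ± 3.32). In type IB the same mice gave 6.61, 3.55, 2.65 and 3.39 CPM (4.05 ± 1.75), and in type IA 2.46, 2.66, 2.01 and 1.87 CPM (2.25 ± 0.370). Every type IC value lay above every type IA and type IB value. The fitted level was 17.8-fold lower in type IA than in type IC (log2 difference -4.15 ± 0.13, SE; adjusted p = 4.47e-31) and 10.3-fold lower in type IB than in type IC (-3.37 ± 0.13; adjusted p = 4.69e-27), in 4 of 4 mice each. Here and below, SE is the absolute log2 difference divided by the square root of the test's F statistic. It is derived from the test and can fall below counting error where UMIs are few. Types IA and IB overlapped in range, although type IA was lower than type IB in each mouse (-0.78 ± 0.24; adjusted p = 0.0170). That smaller difference rested on mouse 1, which had the highest type IB value, since without it the log2 difference was -0.48 (adjusted p = 0.327).

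Counted by cells, Grm8 gave the same order. After each cell was thinned to 4215 UMIs, a depth that left out 671 shallower cells, 16.8% ± 0.795 of type IC cells held a Grm8 UMI (332 of 1978), against 1.53% ± 0.559 of type IB (23 of 1527) and 0.841% ± 0.298 of type IA cells (19 of 2179). At full depth the shares were 43.5% ± 7.84 in type IC, 4.79% ± 2.71 in type IB and 2.48% ± 0.688 in type IA. Among the 2104 type IC cells 60 held 3 or more Grm8 UMIs, and the highest count was 6. No annotated cell lacks a neuronal label, so no share in a cell type without the gene can be set beside these. The sum of 8 Schwann cell markers was 2937 to 3451 CPM in all 5 populations, and the part of free RNA in the low Grm8 shares was not tested.

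Type II and putative cells lay between these levels. Grm8 stood at 25.6, 15.2, 15.4 and 18.2 CPM in type II of mice 1 to 4 (18.6 ± 4.88, from 26 UMIs) and at 16.7, 21.2, 9.43 and 15.0 CPM in putative cells (15.6 ± 4.87, from 70 UMIs). These ranges overlapped with each other, stayed below type IC in every mouse and stayed above type IA and type IB. Against type IC the log2 difference was -1.14 ± 0.26 in type II (adjusted p = 0.0007) and -1.35 ± 0.17 in putative cells (adjusted p = 5.09e-09), and type II was 8.03-fold above type IA (3.01 ± 0.41; adjusted p = 6.35e-08). These 3 differences were computed after the data were seen, in comparisons that called 22.5%, 23.5% and 24.7% of all genes. Against the unweighted mean of the 3 type I log levels, which types IA and IB pull down, type II was higher by 1.36 ± 0.34 (adjusted p = 0.0019) and putative cells by 1.16 ± 0.21 (adjusted p = 3.94e-05). Without mouse 1 the type II difference was 1.23 (adjusted p = 0.0579), and in thinned cells it was 0.86 (adjusted p = 0.490).

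The intermediate levels were unevenly spread within the annotated populations. Among type II cells, the 58 with a UMI of Prph, the peripherin gene that marks type II neurons, had 4 Grm8 UMIs (6.02 ± 5.21 CPM), whereas the other 37 cells had 22 (33.5 ± 4.74 CPM). In mice 1 to 4 the cells without a Prph UMI gave 32.4, 40.0, 28.6 and 33.0 CPM of Grm8 and those with one gave 6.89, 0, 4.64 and 12.5 CPM, with no overlap. The cells with a Prph UMI held 601917 UMIs in all and the others 686881, and Fabp7, a satellite glia transcript, stood at 1136 ± 222 CPM in the former and 124 ± 70.0 CPM in the latter. The fit with type II restricted to cells with a Prph UMI gave -0.27 against the type I mean (adjusted p = 0.827) and 1.38 against type IA (adjusted p = 0.242). In that fit the difference from type IC was -2.77 (adjusted p = 1.17e-05).

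Among putative cells, 62 of the 70 Grm8 UMIs lay in the 113 cells whose profile was nearest to type IC. Grm8 stood there at 46.9, 48.2, 29.3 and 47.2 CPM in mice 1 to 4 (42.9 ± 9.11), a mean close to that of type IC itself. The 103 putative cells nearest to type IA held 2 Grm8 UMIs, the 60 nearest to type IB held 1, the 215 nearest to the putative profile held 3 and the 14 nearest to type II held 2. Types IA and IB had such cells too. In type IA the 27 cells nearest to type IC held 13 of the 69 Grm8 UMIs (23.4 ± 15.9 CPM; 0 in mouse 4), and the 2290 nearest to type IA stood at 1.69 ± 0.276 CPM. Type IB had 17.9 ± 9.15 CPM in the 107 cells nearest to type IC, 3.10 ± 1.42 CPM in the 1415 nearest to type IB, and no UMI in the 85 nearest to type IA, where 3 counts would be 3.73 CPM. The profiles were built without the receptor genes, yet from the same cells, so these values are descriptions and carry no test. With all labels rebuilt in this way, putative cells stood at -0.90 against the type I mean (adjusted p = 0.260), while the type IC differences from types IA and IB were -4.54 and -3.65.

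**Figure D2:**
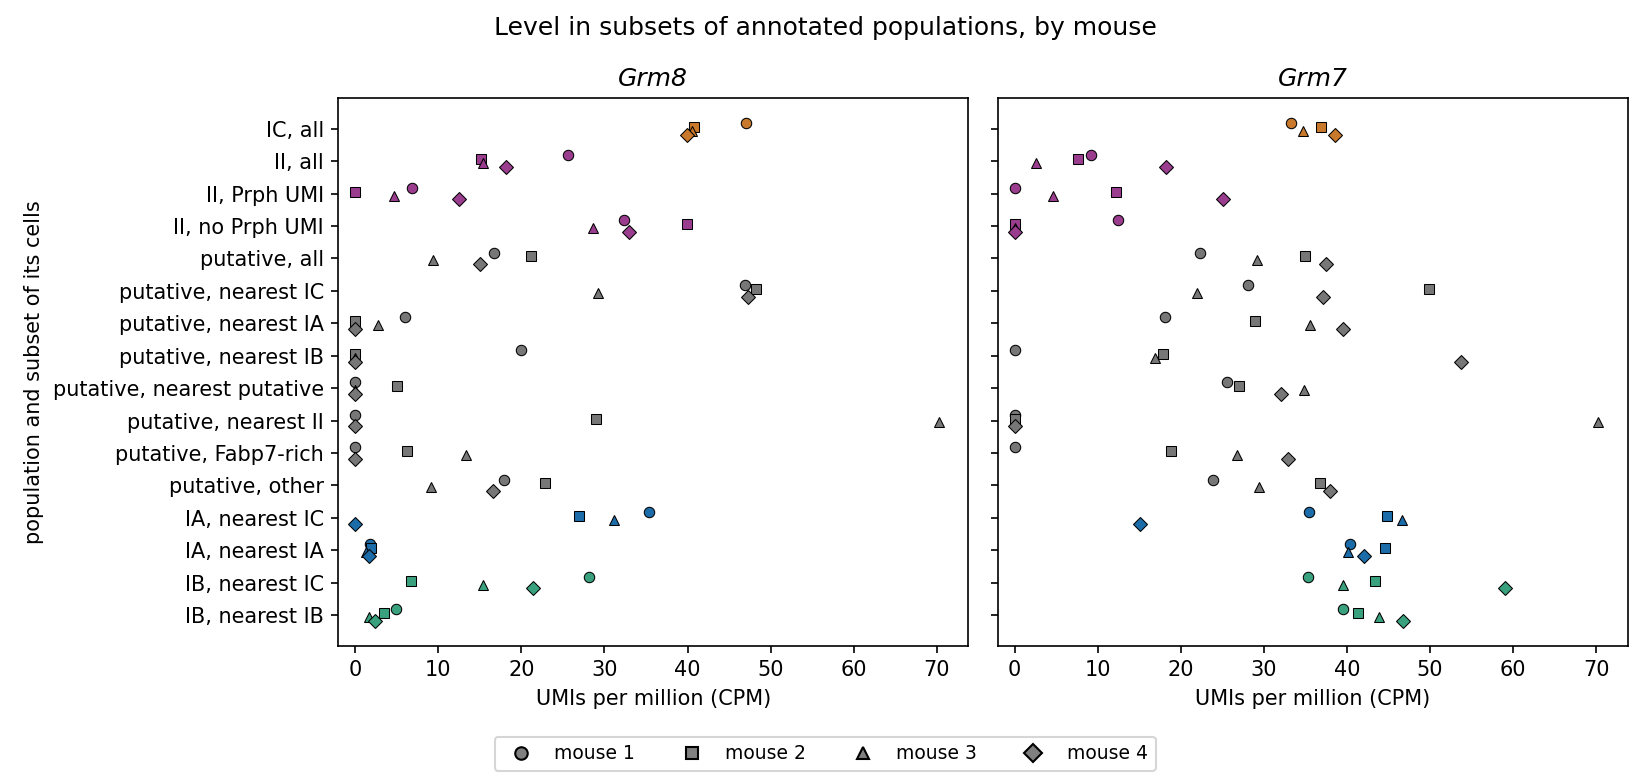
CPM (x axes) of Grm8 (left) and Grm7 (right) in whole populations and in subsets of their cells (y axis), with 1 symbol per mouse. Type II cells without a Prph UMI reach 28.6 to 40.0 CPM of Grm8 and putative cells nearest to type IC 29.3 to 48.2 CPM. Fabp7-rich cells held 3 or more Fabp7 UMIs, and the 14 putative cells nearest to type II held 2 Grm8 UMIs and 1 Grm7 UMI in all.

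Grm7 was spread over the type I neurons and low in type II. In mice 1 to 4 it stood at 40.8, 44.7, 40.6 and 42.3 CPM in type IA (42.1 ± 1.90), at 40.0, 41.1, 43.3 and 48.0 CPM in type IB (43.1 ± 3.55), and at 33.3, 36.9, 34.7 and 38.6 CPM in type IC (35.9 ± 2.35). Types IA and IB overlapped, with a log2 difference of -0.01 ± 0.07 (adjusted p = 0.981). Every type IC value was below every type IA and IB value, but by little: type IA was higher than type IC by 0.26 ± 0.07 (adjusted p = 0.0024) and type IB by 0.27 ± 0.07 (adjusted p = 0.0082). The second of these calls ended without mouse 3 (0.24; adjusted p = 0.0886), and both ended without the mouse block or in thinned cells.

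In type II, Grm7 gave 9.15, 7.59, 2.56 and 18.2 CPM in mice 1 to 4 (9.37 ± 6.51), below every value in the other populations. It was 4.79-fold lower than the type I mean (-2.26 ± 0.32; adjusted p = 1.82e-07), lower in 4 of 4 mice. The level rests on 11 UMIs, of which 45.5% came from 1 cell, and the size of the difference moved accordingly, from -4.02 in thinned cells to -1.88 without mouse 3. In thinned cells 1 of 90 type II cells held a Grm7 UMI (exact 95% binomial interval 0.0281% to 6.04%, counting error only), against 16.9% ± 1.33, 16.3% ± 2.21 and 14.4% ± 2.04 of cells in IA, IB and IC. Cells with and without a Prph UMI held 6 and 5 Grm7 UMIs, and with Prph cells alone the difference from type I was -2.15 (adjusted p = 8.34e-05). The 16 type II cells nearest to type IC, from 3 mice, had 13 Grm8 UMIs and no Grm7 UMI among 358075, where 3 counts would be 8.38 CPM. Satellite glia markers stood high in type II, and without the cells that held 3 or more Fabp7 UMIs the Grm7 difference was -2.10 (adjusted p = 3.24e-05).

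Putative cells gave 22.3, 34.9, 29.2 and 37.5 CPM of Grm7 in mice 1 to 4 (31.0 ± 6.73). This range overlapped with type IC and lay above type II. The difference from the type I mean was -0.34 ± 0.12 (adjusted p = 0.0377), a call that was lost in 9 of 11 alternatives, where the adjusted p reached 0.721 and the difference ran from -0.41 to -0.19. Among them were the fits without mouse 1, 2 or 3 (adjusted p = 0.144, 0.0793 and 0.131). By nearest profile, Grm7 stood in putative cells at 30.5 ± 9.39 CPM nearest to type IA, 34.3 ± 12.1 nearest to type IC and 29.8 ± 4.33 nearest to the putative profile. The 60 cells nearest to type IB gave 0, 17.9, 16.9 and 53.7 CPM in mice 1 to 4 (22.1 ± 22.6, from 12 UMIs), and the 14 nearest to type II held 1 Grm7 UMI. These ranges overlapped. The 96 putative cells with 3 or more Fabp7 UMIs held 8 Grm7 UMIs and stood at 19.6 ± 14.3 CPM, against 32.0 ± 6.56 in the other 409, and were lower in 4 of 4 mice.

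Some type IC cells carried both metabotropic glutamate receptor transcripts, with a UMI of each in 378 of 2104 cells at full depth. In thinned cells the share with both was 2.22% ± 1.06, and the product of the separate shares in each mouse was 2.42% ± 0.431. Both values come from the same mice, so these SDs do not measure the spread of their difference, which was not tested.

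The 5′ end of Grm7 overlaps Gm20387, an antisense gene that is counted in the tables with 188 UMIs over all cells and none in type II. Type II held 1288798 of the 86572150 UMIs, so its lack of a Gm20387 UMI does not show absence. The sources used here do not state whether counting used strand. Of the genes annotated inside Grm8, none is in the tables. The only other metabotropic glutamate receptor gene in the tables was Grm4, also of group III, with 64 UMIs over all cells and means of 0.391 to 2.54 CPM, too few to be tested.

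**Figure D3:**
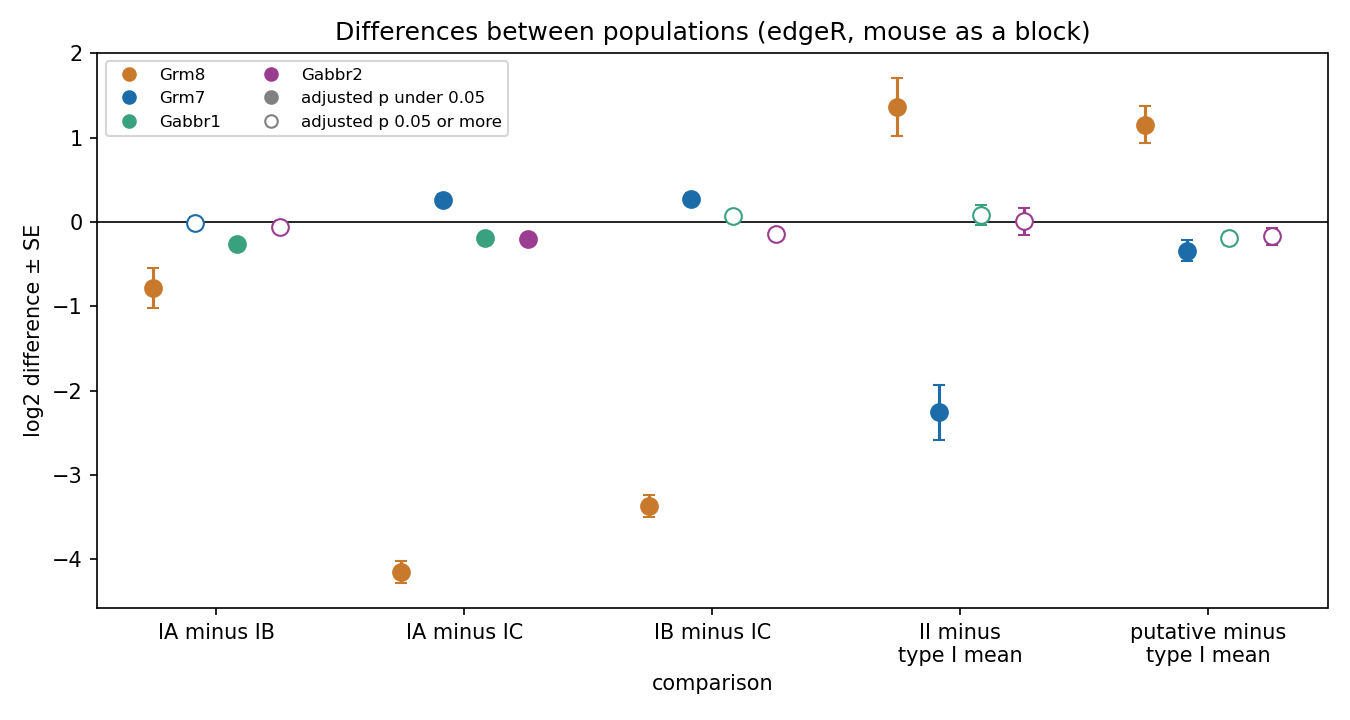
Log2 differences ± SE (y axis) of the receptor genes in the 5 comparisons (x axis) from the edgeR model, with filled points for an adjusted p under 0.05. Each SE is the absolute difference divided by the square root of the F statistic. The 2 Grm8 points below -3 and the Grm7 point at -2.26 stand apart from the GABA-B subunits, which stay within 0.27 of 0.

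Gabbr1 and Gabbr2 were found in every population at similar levels. Gabbr1 lies on chromosome 17 (chr17:37045966-37075067, plus strand) and Gabbr2 on chromosome 4 (chr4:46662305-46991873, minus strand), and neither overlaps another annotated gene. In mice 1 to 4 Gabbr1, the GABA-binding subunit, stood at 131, 121, 127 and 129 CPM in type IA (127 ± 4.26), at 146, 148, 155 and 166 CPM in type IB (154 ± 8.96), and at 151, 144, 152 and 140 CPM in type IC (147 ± 5.93). Type IA was thus below types IB and IC in every mouse, without overlap, while types IB and IC overlapped. The differences were 1.200-fold against type IB (-0.26 ± 0.06; adjusted p = 0.0003) and 1.14-fold against type IC (-0.19 ± 0.05; adjusted p = 0.0041). Type IB and type IC differed by 0.07 ± 0.05 (adjusted p = 0.482). In thinned cells the share with a Gabbr1 UMI was 41.2% ± 0.739 in IA, 48.3% ± 1.24 in IB and 46.3% ± 1.28 in IC, again lowest in IA.

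Gabbr2, the subunit that signals to G proteins, stood at 81.3, 71.7, 76.1 and 75.2 CPM in type IA of mice 1 to 4 (76.1 ± 3.98). In type IB it stood at 86.1, 66.4, 81.7 and 88.2 CPM (80.6 ± 9.83), and in type IC at 98.2, 79.4, 85.9 and 93.6 CPM (89.3 ± 8.33). The ranges overlapped in all neighbouring pairs, but type IC was above type IA in 4 of 4 mice, by 0.20 on the log2 scale (type IA minus type IC -0.20 ± 0.06; adjusted p = 0.0082). With DESeq2 that difference was -0.21 (adjusted p = 0.0765). Type IA and type IB differed by -0.06 ± 0.06 (adjusted p = 0.644), and type IB and type IC by -0.14 ± 0.06 (adjusted p = 0.157).

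In type II the GABA-B subunits varied widely between mice and did not pass the test against type I. In type II of mice 1 to 4, Gabbr1 stood at 181, 91.1, 169 and 127 CPM (142 ± 41.1) and Gabbr2 at 123, 60.8, 71.7 and 50.0 CPM (76.3 ± 32.1). Both ranges enclosed those of types IA and IC. Against the type I mean Gabbr1 differed by 0.09 ± 0.12 (adjusted p = 0.669) and Gabbr2 by 0.01 ± 0.16 (adjusted p = 0.975). The Gabbr2 value depended on the mice and cells included: without mouse 1 it was -0.43 (adjusted p = 0.169), with rebuilt labels -0.63 (adjusted p = 0.0186), and with Prph cells alone -0.87 (adjusted p = 0.0043). Gabbr2 stood at 47.3 ± 16.5 CPM in type II cells with a Prph UMI and 100.1 ± 47.9 CPM in those without.

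In putative cells Gabbr1 gave 146, 123, 122 and 108 CPM (125 ± 15.9) and Gabbr2 80.8, 73.6, 76.4 and 53.5 CPM (71.1 ± 12.1) in mice 1 to 4, ranges that overlapped with type IA. Their differences from the type I mean were -0.19 ± 0.08 (adjusted p = 0.0625) and -0.17 ± 0.10 (adjusted p = 0.234). In thinned cells, which kept 268 of the 505 putative cells, Gabbr1 was at -0.48 (adjusted p = 0.0064). With rebuilt labels Gabbr2 was at -0.58 (adjusted p = 0.0035). The 96 putative cells with 3 or more Fabp7 UMIs stood at 20.8 ± 7.09 CPM of Gabbr2 (8 UMIs) against 58.1 to 85.3 CPM per mouse in the other 409, whereas Gabbr1 was 119 ± 30.3 and 125 ± 16.1 CPM. Fabp7 itself was 6747 ± 1285 CPM in the first set of cells, which was chosen by it, and its part in the Gabbr2 difference was not tested.

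The ratio of Gabbr1 to Gabbr2 UMIs, a quantity within a cell type that does not give the ratio of proteins, was 1.67 ± 0.0428, 1.92 ± 0.221 and 1.65 ± 0.158 in the type I populations IA, IB and IC, 1.97 ± 0.561 in type II and 1.77 ± 0.188 in putative cells. Its ranges over mice overlapped between all 5 populations. Thinned cells with a UMI of both subunits made up 11.5% ± 0.898 of IA, 14.9% ± 1.86 of IB and 15.4% ± 2.13 of IC cells. The products of the separate shares were 11.2%, 14.3% and 14.8%, each a little below the share with both. Shares and products come from the same mice, and their difference was not tested.

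Genes whose log2 levels followed those of a receptor most closely across the 20 sums of mouse and population, after the mean of each mouse was removed, were named as a description. For Grm8 these were Anp32b (Pearson r = 0.956), Pou4f1, a POU-domain factor gene among the type IC markers (0.916), and Hmcn1 (0.915). Pou4f1 stood at 167 CPM in type IC, 65.4 in type II, 54.9 in putative cells, 30.7 in type IB and 8.03 in type IA, the same order as Grm8. For Grm7 they were Fam208a and Ppp1r1a (both 0.950) and P2rx6, an ATP receptor gene (0.946), of which P2rx6 stood at 12.3 CPM in type II and 45.9 to 61.3 CPM elsewhere. Gabbr1 was followed by Ptrhd1 (0.852), Lancl2 (0.841) and Ndufa2 (0.839), and Gabbr2 by Usp22 (0.902), Chst2 (0.899) and Eml2 (0.887). The sums share libraries and depth, so each r is given without a test.

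Partners and signalling genes of these receptors were read from 9 lists of 112 genes, of which 102 are in the tables and 81 were tested. Between type IA and type IC 40 of the 81 differed, 19 higher and 21 lower in type IA (median log2 difference -0.07, against -0.01 over all genes), and type IB differed from type IA in 21 and from type IC in 21 (25.9% each, against 15.6% and 11.8% of all genes). Type II differed from type I in 29, with 18 higher and 11 lower (median 0.07 against -0.05), and putative cells in 23, with 15 higher and 8 lower (0.09 against -0.01). These shares, 49.4% between types IA and IC, 35.8% in type II and 28.4% in putative cells, stood beside 32.3%, 23.4% and 23.3% of all genes. The lists were chosen with earlier results of these data known, so the gap to all genes is a description and not a test. The counts for single lists below have the same shares of all genes as their background, and with 5 to 15 tested genes a list they describe the genes alone.

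**Figure D4:**
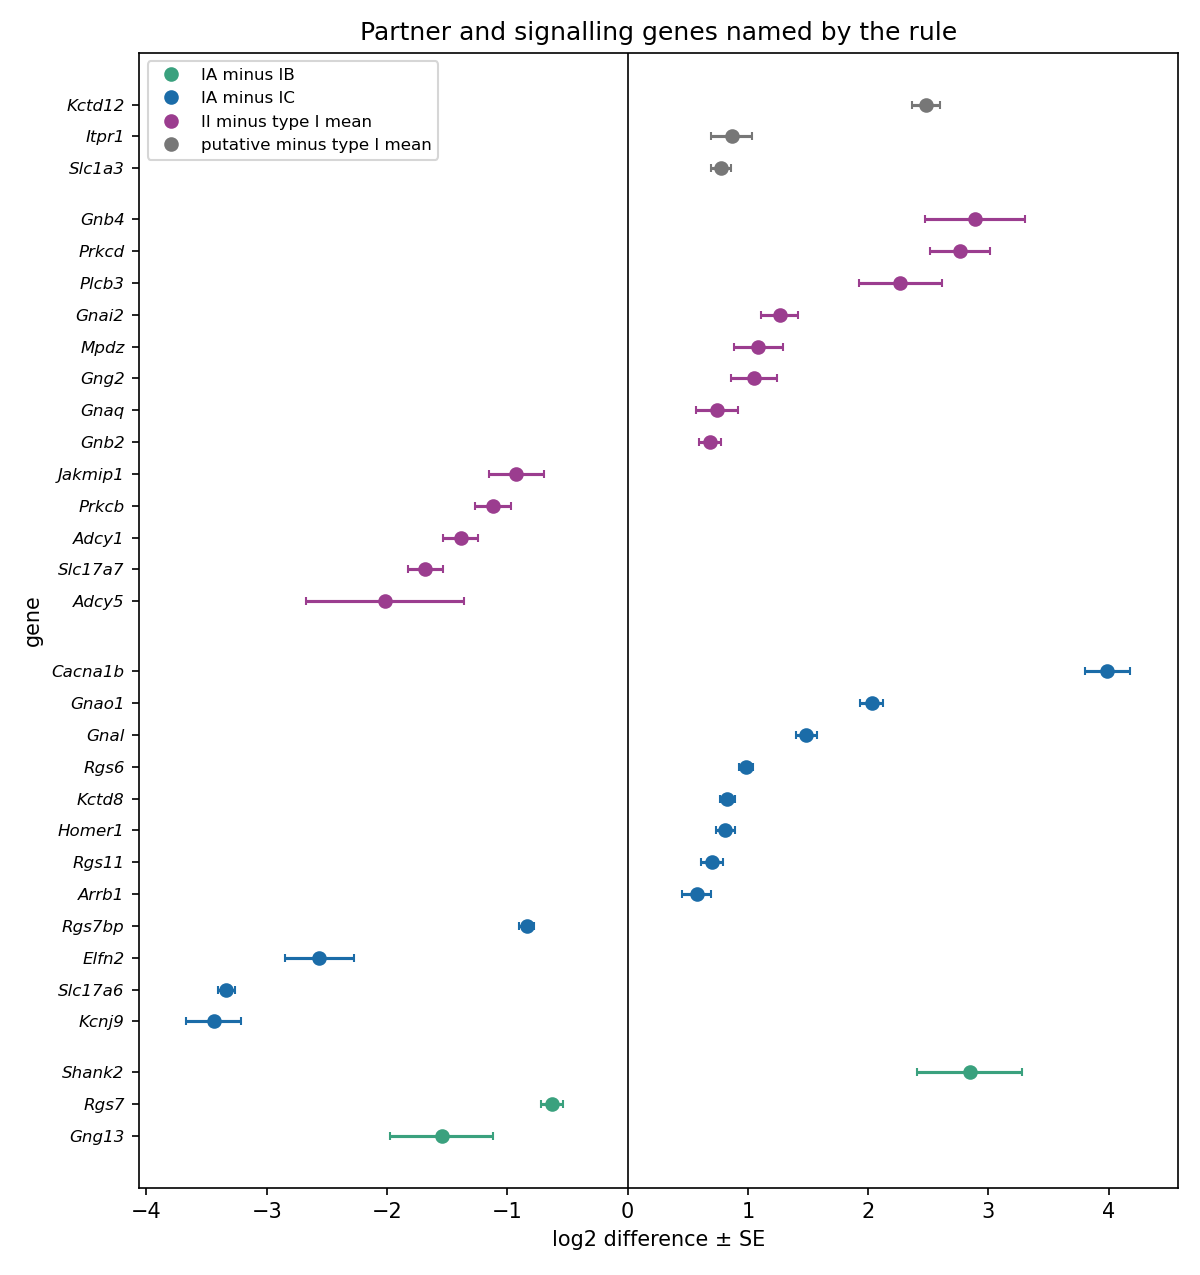
Log2 differences ± SE (x axis) of the partner and signalling genes (y axis) that a fixed rule takes from each list and that are reported here, coloured by comparison. Each SE is the absolute difference divided by the square root of the F statistic. Between types IA and IC they range from -3.44 for Kcnj9 to 3.99 for Cacna1b, and all points shown passed the test.

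Among 6 tested auxiliary subunits and partners of the GABA-B receptor, none differed between types IA and IB (2 at an unadjusted p under 0.05, and 0 by DESeq2), 2 were higher and 3 lower in type IA than in type IC, and 2 were higher and 3 lower in type II. Kctd8, an auxiliary subunit that binds the receptor and shapes its G protein response, fell from 105 ± 3.31 CPM in type IA to 59.6 ± 6.26 in type IC (type IA minus type IC 0.83 ± 0.06; adjusted p = 8.19e-16). Kctd12, a relative that speeds desensitisation, was 71.3 ± 18.2 CPM in putative cells and 12.3 to 12.7 CPM in the type I populations (2.48 ± 0.12; adjusted p = 3.4e-23). Without the Fabp7-rich cells that difference stood at 2.49. The sum of 5 fibroblast markers was also higher in putative cells (376 ± 148 CPM against 103 to 108 in type I). So was that of 5 endothelial markers (51.1 ± 22.8 against 28.0 to 30.3 CPM). The part of RNA from other cells in the Kctd12 difference was not tested. Type II was also above type I in Kctd12, at 42.9 ± 13.4 CPM (1.54 ± 0.25; adjusted p = 3.63e-06). Mpdz, a scaffold, was higher in type II (1.09 ± 0.20; adjusted p = 3.83e-05), a call that ended with Prph cells alone (0.46; adjusted p = 0.321) and with rebuilt labels (0.60; adjusted p = 0.0885). Jakmip1, which links the receptor to microtubules, was lower (-0.92 ± 0.23; adjusted p = 0.0014), but not without mouse 1 (-0.75; adjusted p = 0.0517) or without the Fabp7-rich cells (-0.59; adjusted p = 0.105).

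Among 15 tested scaffolds and partners of metabotropic glutamate receptors, 4 were higher and 3 lower in type IA than in type IC. Elfn2, a transsynaptic binding partner of group III receptors, was 0.881 ± 0.537 CPM in type IA and 5.37 ± 1.28 in type IC (-2.56 ± 0.29; adjusted p = 2.06e-10). Unlike Grm8 it was not low in type IB, at 3.83 ± 1.05 CPM (type IB minus type IC -0.45 ± 0.22; adjusted p = 0.208). Homer1, a postsynaptic scaffold of group I receptors, was higher in type IA (42.7 ± 4.92 against 24.3 ± 1.01 CPM; 0.81 ± 0.08). Arrb1, a beta-arrestin that desensitises receptors, was higher in type IA by 0.58 ± 0.12, and the scaffold gene Shank2 was 2.84 ± 0.43 above type IB at low levels (2.46 ± 0.415 against 0.320 ± 0.0485 CPM).

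Of the 12 tested G protein alpha subunit genes, 2 were higher and 2 lower in type IA than in type IC, and 4 were higher and none lower in type II than in type I. Gnao1, the Go subunit through which these receptors act, was 39.6 ± 1.78 CPM in IA, 13.8 ± 1.48 in IB and 9.95 ± 1.81 in IC, and 50.8 ± 15.0 CPM in type II. It was 2.03 ± 0.10 higher in type IA than in type IC (adjusted p = 4.69e-24). Within type I this was the opposite order to Grm8, but the highest Gnao1 mean was that of type II. Gnal, a Gs-type subunit, was also higher in type IA (1.49 ± 0.08). Gnai2 was 152 ± 53.1 CPM in type II against 47.7 to 56.6 CPM in type I (1.26 ± 0.15; adjusted p = 3.65e-09, and 1.01 without the Fabp7-rich cells). Gnaq was higher there by 0.74 ± 0.17, and in thinned cells it was 0.63 (adjusted p = 0.135).

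Of 11 tested beta and gamma subunit genes 4 were higher and 1 lower in type II. Gnb4 stood at 16.3 ± 1.37 CPM there and 1.80 to 2.23 CPM in type I (2.89 ± 0.42; adjusted p = 2.42e-07). Gnb2 was higher by 0.68 ± 0.09 and Gng2 by 1.05 ± 0.19, the latter not in thinned cells (0.82; adjusted p = 0.0796). Gng13 was 1.54 lower on the log2 scale in type IA than in type IB (-1.54 ± 0.43; adjusted p = 0.0075), at 0.579 and 1.89 CPM, but without mouse 4 the adjusted p was 0.0611. Among 12 tested genes of Gq output, 5 were higher and 1 lower in type II. Prkcd, a protein kinase C, was 70.5 ± 29.0 CPM there against 6.57 to 9.08 CPM in type I (2.76 ± 0.25). Plcb3, a phospholipase C, was higher by 2.27 ± 0.34 (1.45 in thinned cells; adjusted p = 0.222), and Prkcb lower by 1.12 (-1.12 ± 0.15). Itpr1, a calcium release channel, was higher in putative cells (0.87 ± 0.17).

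Of the targets of Gi/o signalling, 3 of 10 tested genes were higher and 4 lower in type IA than in type IC. Kcnj9, a subunit of the potassium channels that Gi/o proteins open, was 0.950 ± 0.342 CPM in IA, 5.36 ± 1.48 in IB and 10.9 ± 1.65 in IC (type IA minus type IC -3.44 ± 0.23; adjusted p = 5.99e-18), the same order as Grm8. Cacna1b encodes the N-type calcium channel pore that Gi/o proteins inhibit. Within type I it ran the other way, at 16.6 ± 2.48, 2.85 ± 0.861 and 1.04 ± 0.202 CPM in IA, IB and IC (3.99 ± 0.19; adjusted p = 1.03e-23). The highest Cacna1b mean, however, was that of type II (24.0 CPM), and its mean in putative cells was 7.44 CPM. Adcy1, an adenylyl cyclase, was lower in type II (-1.39 ± 0.15; adjusted p = 1.23e-10). Adcy5 was lower there too (-2.02 ± 0.66; adjusted p = 0.0187), on 3 UMIs. That call was lost in 5 of 12 alternatives, with an adjusted p of up to 0.268, among them the fits without mouse 3 or 4 (adjusted p = 0.192 and 0.0646). With 1 mouse left out the difference ran from -8.37 (without mouse 1) to -1.42.

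The complex of RGS proteins that shortens Gi/o signals split within type I: of 5 tested genes 2 were higher and 2 lower in type IA than in type IC, and none differed in type II or in putative cells. At an unadjusted p under 0.05 these last counts were 1 and 3, and DESeq2 called 0 in each. Rgs6 (0.99 ± 0.06) and Rgs11 (0.70 ± 0.09) were higher in type IA, whereas Rgs7bp, the membrane anchor of the complex, was lower (-0.84 ± 0.06), and Rgs7 was lower than in type IB (-0.63 ± 0.09). Among 10 tested genes that supply or clear glutamate and GABA, Slc17a6 was lower in type IA than in type IC (-3.34 ± 0.07). Its means were 19.8, 160 and 207 CPM in IA, IB and IC. In type II the vesicular transporter gene Slc17a7 was lower (-1.68 ± 0.15). In putative cells, where 23.3% of all genes were called, 5 of the 10 were higher and 1 lower, including the glial glutamate transporter gene Slc1a3 (0.78 ± 0.08), which stood at 0.45 without the Fabp7-rich cells, and satellite glia markers were high in the same cells. The GABA-synthesising enzyme genes Gad1 and Gad2 had 4 and 13 UMIs over all cells and were not tested.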

How the data were processed

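Single cells of the dissected modiolus of 4 mice were captured with 10x Genomics v2 chemistry, per the labels' protocols. The authors deposited unnormalised UMI counts for each cell and gene symbol, 1 table per mouse, and a table of population labels (used as other, non-numeric values). The submitters' processing notes name Cell Ranger 2.0.1, Seurat 1.4 and mm10; the sources used here do not state the filters on cells, any doublet removal or how labels were assigned, and no doublet caller was run. The members and gene lists were chosen with earlier results of these data known.

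Counts were summed per mouse and population (20 sums) and fitted in 1 model with edgeR 4.0.16 (R 4.3.3; filterByExpr, TMM, quasi-likelihood), with mouse as a block. Library totals ran from 15151343 to 27309045 UMIs per mouse. The mouse number pairs the sums because they come from the same animal and library. Deviations from population means correlated at 0.0651 to 0.706 within a mouse and at -0.414 to 0.110 between mice, over 6060 genes. Pairs with type II gave 0.0651 to 0.223 within a mouse, which overlapped the values between mice. Deviations from a mean of 4 mice sum to 0, which pushes the values between mice down, so the contrast is a description. The model tested 13005 genes, with 12 residual degrees of freedom, and p-values are two-sided and adjusted per comparison over all of them. Each SE is the absolute log2 difference divided by the square root of the quasi-likelihood F statistic, not a separately estimated standard error. Shares of cells used cells thinned to 4215 UMIs. This depth was reached by 268 of 505 putative cells and 2179 of 2384 type IA cells, so thinned fits used a smaller set of putative cells. The members are always named. From each list the rule names up to 4 genes with the largest log2 difference among called genes that moved one way in 4 of 4 mice and had 20 or more UMIs where higher, and for each member the 3 genes most correlated with it. A gene the rule names is counted with its list but not otherwise reported here. Alternatives were DESeq2 1.42.0, RLE scaling, no low-count filter, no mouse block, each mouse left out, thinned cells, cells with 3 or more Fabp7 UMIs left out, type II cells with a Prph UMI alone, labels rebuilt by correlation over 2000 variable genes, and type I sums alone.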

Additional observations from a re-analysis of the deposited data

Results flagged for a closer look

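Of the 20 groups of 4 mice (4 receptor genes in 5 populations), 1 held a mouse far from the others. Grm8 in type IC was 47.0 CPM in mouse 1, against 39.9 to 40.8 CPM in the other mice, a gap of 0.874 of the whole range. Chance sets apart about 1 in 20 such groups. Without mouse 1 type IC still differed from types IA and IB in Grm8 past the threshold.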

How the results depend on the processing

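Of the 12 receptor differences past the threshold, 142 alternative fits kept 116 calls, lost 24 without and 2 with a change of direction. Grm8 between type IC and types IA or IB, and Grm7 in type II, kept their calls in every alternative run. Leaving out 1 mouse at a time gave 1334 to 1782 genes called between types IA and IB (2027 with all mice), 3091 to 3842 between types IA and IC (4200), 945 to 1417 between types IB and IC (1540), 2172 to 2864 in type II (3040) and 1899 to 3024 in putative cells (3031). Without the block that pairs sums of a mouse, 901, 2358 and 595 genes were called in the type I comparisons, and the calls of Grm8 between types IA and IB (adjusted p = 0.0580), Gabbr1 between types IA and IB (0.0539) and types IA and IC (0.125), Grm7 between types IA and IC (0.0586), types IB and IC (0.124) and in putative cells (0.0553), and Gabbr2 between types IA and IC (0.216) were lost. Thinned cells gave 1141, 2604, 872, 1938 and 1119 calls in the 5 comparisons, and there Grm8 between types IA and IB (0.344), Grm7 between types IA and IC (0.102) and types IB and IC (0.396) and Gabbr2 between types IA and IC (0.0832) were not called. Cells without 3 or more Fabp7 UMIs gave 1896 calls in type II, and type I sums alone 2341 between types IB and IC. The causes were not tested.

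Some values changed direction. Grm7 between types IA and IB became 0.0049 without the low-count filter, 0.044 in thinned cells and -0.068 to 0.038 with 1 mouse left out. In type II Gabbr1 became -0.12 in thinned cells, -0.14 with rebuilt labels and -0.30 with Prph cells alone, and ran from -0.085 (without mouse 1) to 0.15 with 1 mouse left out. Gabbr2 there became -0.035 without the filter, -0.14 in thinned cells, -0.63 with rebuilt labels and -0.87 with Prph cells alone, and ran from -0.43 (without mouse 1) to 0.13. Grm8 became -0.27 in type II with Prph cells alone and -0.90 in putative cells with rebuilt labels. Grm7 in putative cells lost its call in 9 alternatives. Of 375 alternative fits of the 32 list genes named, 14 lost a call and none changed direction. Type II rests on 95 cells, 11 Grm7 and 26 Grm8 UMIs.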
